A study of Homo sapiens with 6 samples.

Results

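The 39 genes described here serve DNA replication (18 genes) and mitosis (21 genes). They were chosen by symbol for these roles. The rule names no measured value, but the list was drawn up with earlier results of these data known. Each symbol matched exactly 1 of the 61541 genes in the deposited count table, of which 14176 could be tested. Their RNA was measured in bulk in 2 human breast cancer cell lines: MDA-MB-231-D3H2LN (MDA231-LN, 3 libraries), and the parental MDA-MB-231 (3 libraries). MDA-MB-231 is a triple-negative line from a metastatic breast adenocarcinoma, and MDA231-LN is known to express luciferase and to derive from MDA-MB-231 cells that had spread to a mouse lymph node. Per the labels, both grew in high-glucose DMEM with 10% serum, and no treatment is named. Each side of the comparison is a single line, so its lymph node origin, its luciferase and any other difference between the lines cannot be told apart, and no label says whether a line's libraries stem from separate cultures. The p-values therefore measure only the spread between these libraries, which may be technical.

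Before a cell divides it copies its genome and then separates the copies. In G1 the origin recognition complex, CDC6 and CDT1 load the MCM2-7 helicase onto DNA, and in S phase CDC45 and the GINS complex activate it while PCNA holds the polymerases on the template. In mitosis CDK1 with its cyclins drives entry, Aurora and Polo-like kinases build the spindle, and the spindle checkpoint holds back CDC20 and the anaphase-promoting complex (APC/C) until every chromosome is attached. RNAs of the first group are known to peak around the start of S phase under E2F factors. Most of those of the second, though not MYBL2 itself, are known to peak in G2 and M phase under the MuvB complex with MYBL2 and FOXM1. In bulk RNA, fewer cells in a phase and less RNA per cell cannot be told apart.

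The libraries held 17661542 to 18882719 counted fragments in MDA231-LN and 16461578 to 19171017 in the parental line. Levels are given in CPM (counts per 1e6 of a library size scaled by the TMM method). Genes that rose or fell had an adjusted p under 0.05 in edgeR's quasi-likelihood test. Of 5 genes known to be high in MDA-MB-231, VIM, CD44, AXL and CAV1 rose and EGFR fell, to 328 ± 12.6 CPM in MDA231-LN against 632 ± 60.8 CPM in the parental line, and their sum was 5257 to 5556 CPM in MDA231-LN and 3654 to 3844 CPM in the parental line. Of 7 luminal genes, which summed to 122 to 129 CPM in MDA231-LN and 118 to 130 CPM in the parental line, ESR1, PGR, CDH1 and FOXA1 averaged at most 2.63 CPM in either line, with ESR1 (0.951 CPM in MDA231-LN and 0.164 CPM in the parental line) and FOXA1 (2.63 CPM in MDA231-LN and 0.179 CPM in the parental line) called higher. ERBB2 was at 89.8 ± 2.22 CPM in MDA231-LN and 90.4 ± 4.32 CPM in the parental line. GATA3 was at 17.4 CPM in MDA231-LN and 19.8 CPM in the parental line, and EPCAM at 15.2 CPM in MDA231-LN and 13 CPM in the parental line. These 3 did not pass. Of 7 leukocyte and endothelial genes, which summed to 12.6 to 13.7 CPM in MDA231-LN and 7.8 to 11.6 CPM in the parental line, CD3E and LYVE1 had no count, and PTPRC, CD79A and CDH5 averaged at most 0.548 CPM in either line. PECAM1 was at 8.59 CPM in MDA231-LN and 9.52 CPM in the parental line and did not pass, and PROX1, a lymphatic endothelial regulator, rose (3.76 ± 0.77 CPM in MDA231-LN and 0.183 ± 0.126 CPM in the parental line). The part of these markers in the results was not tested. All 39 genes passed the filter on low counts, with 517 to 20749 counts per gene and library.

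The division genes differed little between the lines. Of the 39, 18 rose and 5 fell in MDA231-LN, and 16 did not pass an adjusted p under 0.05 (edgeR quasi-likelihood test, Benjamini-Hochberg over 14176 genes). This is 59% called, against 62.8% of all tested genes, so they were not called more often than the background. None differed 2-fold, whereas 13% of all tested genes rose and 7.53% fell by at least that much. The log2 fold change was under 0.5 in absolute size for 34 of the 39 (87.2%), against 54.4% of all tested genes. The 39 had at least 517 counts in every library, whereas all tested genes include weak ones such as ESR1 (0.951 CPM in MDA231-LN). Shares among genes of like level were not computed, so the part of expression level in these contrasts was not tested. "Rose" and "fell" are used here for genes past this threshold, higher or lower in MDA231-LN. Beside a CPM value ± gives the SD of 3 libraries, and beside a log2 fold change it gives the SE.

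**Figure D1:**
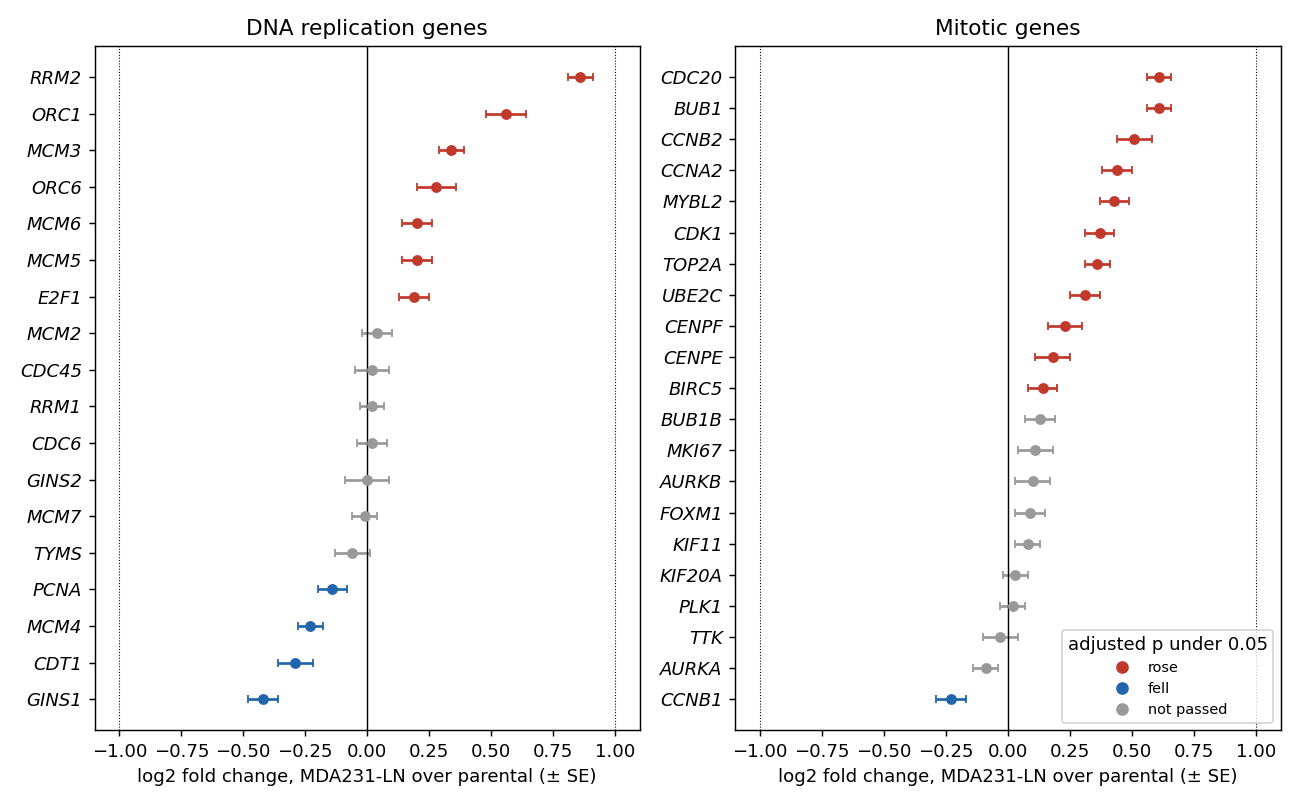
Log2 fold change of MDA231-LN over the parental line (x axis, ± SE) for the 18 replication genes (left) and the 21 mitotic genes (right). Red points rose, blue points fell and grey points did not pass an adjusted p under 0.05, and dotted lines mark a 2-fold difference, which no gene reached. RRM2 was the furthest to the right at 0.86 and GINS1 the furthest to the left at -0.42.

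The promoters of these genes are known to carry E2F sites (replication genes) or a CCAAT box with a cell cycle homology region, CHR (mitotic genes). The 250 bases before the RefSeq start (GRCh38.p14) were searched on both strands for the E2F letters TTTCCCGC, TTTCGCGC, TTTGCCGC and TTTGGCGC, for the CHR letters TTTGAA and TTCGAA, and for CCAAT, and matches may overlap. A sequence was at hand for 16 replication and 16 mitotic genes. E2F letters were found in 8 of the 16 replication promoters (50%) and in 0 of the 16 mitotic ones, against 2.79% of 27305 promoters. CHR letters were found in 2 of 16 replication promoters (12.5%) and 8 of 16 mitotic ones (50%), against 14.6% of all. CCAAT was found in 13 of 16 (81.2%) in both groups, against 33% of all. Among mitotic genes the CHR letters stood in 4 of 9 promoters of risers and in 4 of 6 of genes that did not pass. Among replication genes the E2F letters stood in 3 of 6 promoters of risers, 2 of 3 of fallers and 3 of 7 of genes that did not pass. A match describes letters and is neither a binding site nor a cause.

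To show these letters in place, promoters are given for the replication gene that rose furthest, for MCM6, which holds several E2F matches, and for the mitotic genes that moved furthest or, for the B-type cyclins, apart. Capitals mark E2F, CHR or CCAAT letters on either strand. In RRM2 they mark 3 CCAAT boxes. In MCM6 they mark 4 E2F matches in 2 overlapping pairs, CCAAT read on the other strand (ATTGG) at 2 places, and 1 CHR match. CCNB2 holds 4 CCAAT boxes and a CHR match near the start, where CCNB1 holds 2 CCAAT boxes and no CHR letters of this form. CDC20 holds 2 of each, and BUB1 2 CCAAT boxes, 1 of them on the other strand.
RRM2 (chr2:10122489-10122738, plus strand): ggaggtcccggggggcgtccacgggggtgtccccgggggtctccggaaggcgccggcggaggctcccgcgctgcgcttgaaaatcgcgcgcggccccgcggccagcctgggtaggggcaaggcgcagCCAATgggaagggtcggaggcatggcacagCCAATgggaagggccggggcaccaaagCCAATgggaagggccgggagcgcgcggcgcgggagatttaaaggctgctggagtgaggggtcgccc
MCM6 (chr2:135876444-135876693, minus strand): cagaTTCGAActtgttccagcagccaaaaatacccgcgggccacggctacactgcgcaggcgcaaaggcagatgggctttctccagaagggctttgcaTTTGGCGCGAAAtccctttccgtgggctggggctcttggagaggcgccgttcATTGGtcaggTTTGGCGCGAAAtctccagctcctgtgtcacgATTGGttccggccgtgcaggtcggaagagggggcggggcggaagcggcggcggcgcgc
CCNB2 (chr15:59104896-59105145, plus strand): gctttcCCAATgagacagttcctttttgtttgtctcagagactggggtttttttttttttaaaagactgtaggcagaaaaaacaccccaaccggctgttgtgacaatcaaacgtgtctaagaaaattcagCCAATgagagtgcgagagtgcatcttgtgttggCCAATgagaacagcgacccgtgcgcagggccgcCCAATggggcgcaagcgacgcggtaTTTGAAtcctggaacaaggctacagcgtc
CCNB1 (chr5:69166900-69167149, plus strand): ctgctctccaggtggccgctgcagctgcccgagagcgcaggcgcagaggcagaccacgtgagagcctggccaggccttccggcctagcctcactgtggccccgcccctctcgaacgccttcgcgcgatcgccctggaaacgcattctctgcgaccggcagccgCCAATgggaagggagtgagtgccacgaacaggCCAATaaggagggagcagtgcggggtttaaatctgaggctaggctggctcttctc
CDC20 (chr1:43358731-43358980, plus strand): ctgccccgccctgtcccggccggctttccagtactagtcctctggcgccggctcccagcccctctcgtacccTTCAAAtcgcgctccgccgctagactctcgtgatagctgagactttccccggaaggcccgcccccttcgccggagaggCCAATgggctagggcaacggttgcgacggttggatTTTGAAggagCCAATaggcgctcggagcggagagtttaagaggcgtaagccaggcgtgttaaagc
BUB1 (chr2:110678064-110678313, minus strand): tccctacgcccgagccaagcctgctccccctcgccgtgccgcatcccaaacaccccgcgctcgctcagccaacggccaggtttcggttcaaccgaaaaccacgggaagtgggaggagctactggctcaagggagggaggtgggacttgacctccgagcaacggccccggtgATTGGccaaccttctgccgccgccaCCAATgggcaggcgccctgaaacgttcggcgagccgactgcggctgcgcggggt

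Of the 18 replication genes, 7 rose and 4 fell, 38.9% and 22.2%, against 31.6% and 31.2% of all tested genes. Their median log2 fold change was 0.02, the same as the median of all tested genes. Each MDA231-LN library exceeded each parental one for 7 replication genes, and each was below for 4. Over all tested genes these shares were 33.8% and 32.8%. The summed level of the 18 genes was 3468, 3498 and 3496 CPM in MDA231-LN and 3162, 3265 and 3142 CPM in the parental line, a ratio of 1.09.

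RRM2 moved furthest. It encodes the small, S-phase-regulated subunit of ribonucleotide reductase, the enzyme that makes deoxynucleotides for DNA synthesis. It was at 411, 428 and 432 CPM in MDA231-LN, against 224, 245 and 233 CPM in the parental line, a 1.81-fold difference (log2 fold change 0.86 ± 0.05, adjusted p = 2.44e-13). The libraries of the lines did not overlap. RRM1, the large subunit of the same enzyme, was at 351, 339 and 328 CPM in MDA231-LN and at 325, 344 and 335 CPM in the parental line, with the libraries interleaved (log2 fold change 0.02 ± 0.05, adjusted p = 0.748). That p does not show that RRM1 was equal in the lines. TYMS, thymidylate synthase, which makes the thymine nucleotide, was at 96 ± 11.1 CPM in MDA231-LN and 100 ± 1.69 CPM in the parental line and did not pass (adjusted p = 0.447). Of its exonic bases 55.3% lie inside another gene, chiefly ENOSF1 and TYMSOS, and fragments touching more than 1 gene were not counted.

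Among the genes that load the helicase, 5 rose, 2 fell and 3 did not pass. ORC1, an ATP-binding subunit of the origin recognition complex, rose 1.48-fold. Its libraries were at 49.5, 56.2 and 51.6 CPM in MDA231-LN and at 38.9, 32.8 and 34.8 CPM in the parental line (log2 fold change 0.56 ± 0.08, adjusted p = 2.23e-06). ORC6, the smallest subunit of that complex, was at 65.1, 66.9 and 68.3 CPM in MDA231-LN and at 61.2, 47.2 and 56.6 CPM in the parental line. This was a smaller rise, and the lowest MDA231-LN library lay close above the highest parental one (log2 fold change 0.28 ± 0.08, adjusted p = 0.00407). CDT1, the loading factor that geminin restrains, went the other way. It was at 87.8, 90.6 and 87.3 CPM in MDA231-LN and at 109, 118 and 98.3 CPM in the parental line (log2 fold change -0.29 ± 0.07, adjusted p = 5.53e-04). CDC6, its partner in loading, was at 172, 181 and 171 CPM in MDA231-LN and at 169, 179 and 168 CPM in the parental line, with no difference beyond the spread (adjusted p = 0.766).

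The 6 subunits of the MCM helicase did not move as a block, although they assemble into a ring with each subunit present in equal number. MCM3 rose to 585, 576 and 590 CPM in MDA231-LN, against 461, 466 and 459 CPM in the parental line (log2 fold change 0.34 ± 0.05, adjusted p = 1.32e-06). MCM4 fell to 264, 276 and 267 CPM in MDA231-LN, against 302, 322 and 323 CPM in the parental line (log2 fold change -0.23 ± 0.05, adjusted p = 5.19e-04). For both genes the lines were fully apart, in opposite directions. MCM5 and MCM6 rose by small amounts, MCM5 being at 184 ± 5.61 CPM in MDA231-LN and 160 ± 2.7 CPM in the parental line. MCM6 was at 149 ± 2.48 CPM in MDA231-LN and 130 ± 7.02 CPM in the parental line, with the same log2 fold change of 0.20 ± 0.06 as MCM5. MCM2 and MCM7 did not pass. MCM7 was at 382, 395 and 394 CPM in MDA231-LN and at 382, 406 and 388 CPM in the parental line, values that overlap throughout. MCM2 was at 145 ± 4.6 CPM in MDA231-LN and 141 ± 6.21 CPM in the parental line, and 23.6% of its exonic bases lie inside another gene.

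Of the 3 genes that activate the loaded helicase, 1 fell and 2 did not pass. GINS1, a subunit of the GINS complex, fell furthest of the 39 genes, to 68.1, 68.1 and 70.8 CPM in MDA231-LN against 92.7, 88.7 and 95.2 CPM in the parental line (log2 fold change -0.42 ± 0.06, adjusted p = 3.06e-06). GINS2, another subunit of the same complex, was at 36, 35.6 and 36.6 CPM in MDA231-LN and at 37.3, 37.9 and 32.8 CPM in the parental line (adjusted p = 0.965). CDC45, which binds GINS and MCM in the active helicase, was at 63.9 ± 1.29 CPM in MDA231-LN and 63.2 ± 1.02 CPM in the parental line (adjusted p = 0.851). PCNA, the sliding clamp, was slightly lower, at 198, 208 and 212 CPM in MDA231-LN and 233, 234 and 213 CPM in the parental line (log2 fold change -0.14 ± 0.06, adjusted p = 0.0353). The highest MDA231-LN library and the lowest parental one nearly touched. This call was fragile: it was lost under 10 of 14 alternatives (the 2-fold minimum not among them), with adjusted p from 0.00362 to 0.686 over all of them. E2F1, a transcription factor that activates many S-phase genes, rose to 147, 143 and 157 CPM in MDA231-LN, against 137, 134 and 120 CPM in the parental line (log2 fold change 0.19 ± 0.06, adjusted p = 0.0103). Its call was lost without MDA231-LN replicate 3 (edgeR adjusted p = 0.0839) or parental replicate 3 (edgeR adjusted p = 0.0759), within a range of 1.54e-04 to 0.0839. With upper-quartile scaling 10 replication genes rose and 3 fell, while 5415 of all tested genes rose and 3603 fell, and the medians of the replication genes and of all tested genes were both 0.13.

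**Figure D2:**
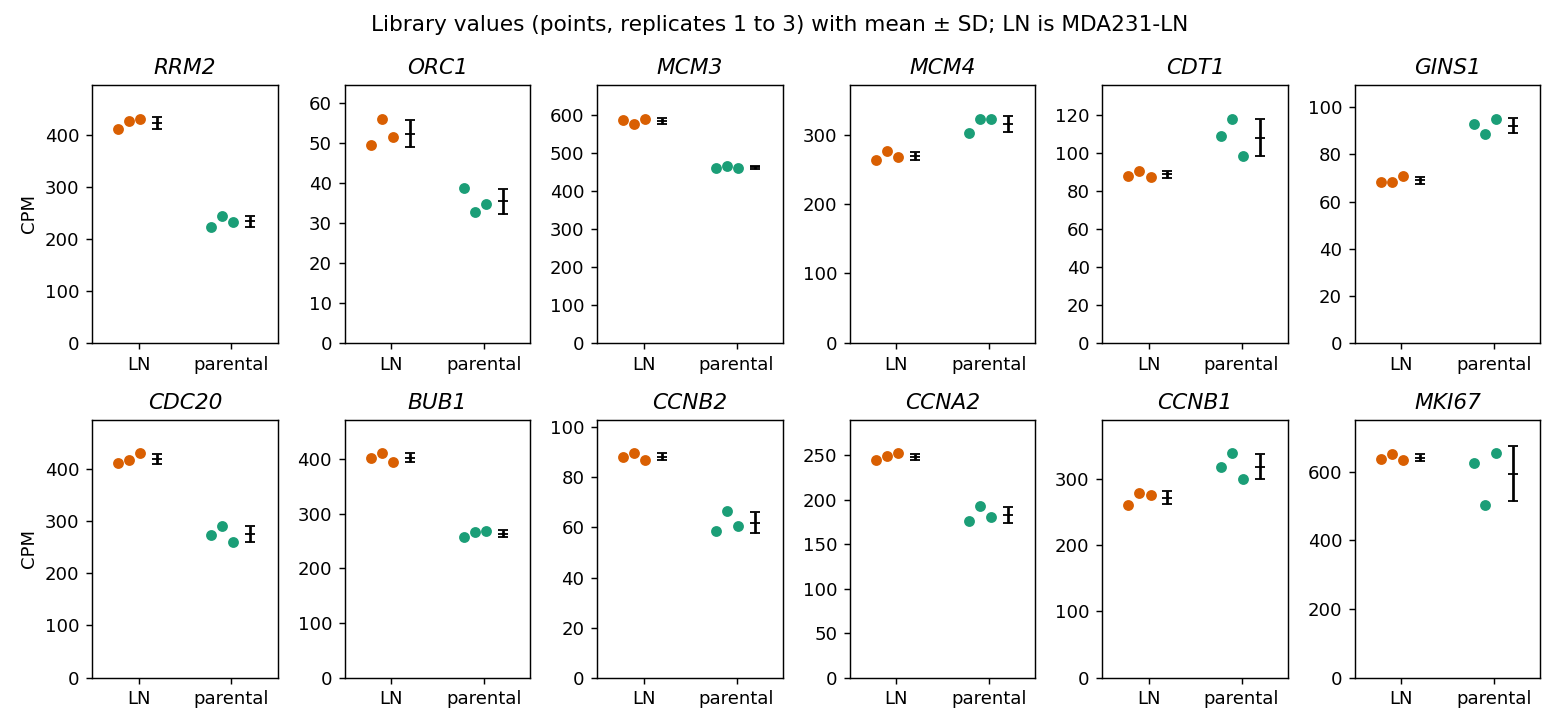
CPM in every library (y axis from 0, points in the order of replicates 1 to 3, mean ± SD beside them) for 6 replication genes (top row) and 6 mitotic genes (bottom row), with MDA231-LN on the left and the parental line on the right of each panel. In 11 panels the lines do not overlap, and in the MKI67 panel parental replicate 2 at 502 CPM lies below the other 5 libraries.

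Of the 21 mitotic genes, 11 rose and 1 fell, 52.4% and 4.76%, beside the 31.6% and 31.2% of all tested genes given above. Their median log2 fold change was 0.14, against 0.02 for all tested genes, and 18 of the 21 values were above 0. The MDA231-LN libraries lay above the parental ones for 12 of them and below for 2, beside 33.8% and 32.8% of all tested genes. Summed over the 21 genes, the level was 6115, 6235 and 6207 CPM in MDA231-LN and 5271, 5207 and 5341 CPM in the parental line, a ratio of 1.17. Upper-quartile scaling moved the median of all tested genes to 0.13 and that of the mitotic genes to 0.25, leaving the same gap of 0.12. With that scaling 18 mitotic genes rose and 0 fell (edgeR, 1 at an unadjusted p under 0.05). The split between risers and genes that did not pass therefore depends on the scaling. DESeq2 on its own scaling had 1 falling, as did limma-voom, which reused the TMM factors.

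The cyclin-dependent engine of mitosis shifted within itself. CDK1, the kinase that drives entry into mitosis, rose to 254, 263 and 268 CPM in MDA231-LN, against 197, 216 and 193 CPM in the parental line (log2 fold change 0.37 ± 0.06, adjusted p = 2.36e-06). CCNA2, the cyclin of S and G2 phase, was at 244, 249 and 252 CPM in MDA231-LN and at 176, 193 and 181 CPM in the parental line (log2 fold change 0.44 ± 0.06, adjusted p = 1.29e-07). All MDA231-LN libraries lay well above the parental ones in both cases. The B-type cyclins, which activate CDK1 in mitosis, moved apart. CCNB2 rose to 88.3, 89.6 and 86.9 CPM in MDA231-LN, against 58.6, 66.7 and 60.4 CPM in the parental line (log2 fold change 0.51 ± 0.07, adjusted p = 3.08e-07). CCNB1 fell to 261, 279 and 276 CPM in MDA231-LN, against 319, 339 and 300 CPM in the parental line (log2 fold change -0.23 ± 0.06, adjusted p = 9.17e-04). CCNB1 is the sole mitotic gene of the 21 that fell, and upper-quartile scaling ended its call (edgeR adjusted p = 0.06, within a range of 4.95e-05 to 0.06). Fragments from 55.5% of the exonic bases of CCNB2 and 21% of those of CCNA2 touch another annotated gene, which lowers their counts in both lines.

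The APC/C genes among the 21 both rose. CDC20, the activator that the spindle checkpoint holds back, was at 411, 417 and 430 CPM in MDA231-LN and at 273, 291 and 260 CPM in the parental line, a 1.53-fold difference (log2 fold change 0.61 ± 0.05, adjusted p = 2.57e-10). UBE2C, the ubiquitin-conjugating enzyme of the APC/C, was at 259, 267 and 278 CPM in MDA231-LN and at 220, 230 and 199 CPM in the parental line (log2 fold change 0.31 ± 0.06, adjusted p = 5.35e-05). The lines were apart for both, by a wider margin for CDC20. Of the checkpoint kinases, BUB1 rose 1.53-fold, with 403, 411 and 395 CPM in MDA231-LN and 258, 267 and 268 CPM in the parental line (log2 fold change 0.61 ± 0.05, adjusted p = 9.69e-11). BUB1B, which encodes the BUBR1 checkpoint protein, was at 119 ± 4.53 CPM in MDA231-LN and 109 ± 4.93 CPM in the parental line and did not pass (adjusted p = 0.0683), although its libraries did not overlap. It passed with RLE scaling (edgeR adjusted p = 0.0452), with the filter of 1 CPM (edgeR adjusted p = 0.0423) and with upper-quartile scaling, within a range of 0.00116 to 0.244. TTK, the kinase also called MPS1, was at 86.7, 97.7 and 90.9 CPM in MDA231-LN and at 83.9, 93.2 and 104 CPM in the parental line, with the libraries interleaved (adjusted p = 0.732). Of the 21 mitotic genes, CDC20 and BUB1 had the widest gaps on the log2 scale.

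Of the transcription factors of the G2 and M programme, 1 rose and 1 did not pass. MYBL2, which joins the MuvB complex in S phase, rose to 249, 255 and 268 CPM in MDA231-LN, against 202, 191 and 181 CPM in the parental line (log2 fold change 0.43 ± 0.06, adjusted p = 3.12e-07). FOXM1, which joins it in G2, was at 125, 134 and 129 CPM in MDA231-LN and at 122, 123 and 121 CPM in the parental line and did not pass (adjusted p = 0.197). Its libraries did not overlap, the gap being small, and 45.3% of its exonic bases lie inside other genes, among them RHNO1. Whether MYBL2 and FOXM1 differ in their response was not tested.

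The 3 kinases that build and regulate the spindle did not pass with all libraries and TMM scaling. PLK1, Polo-like kinase 1, was at 233, 226 and 237 CPM in MDA231-LN and at 233, 237 and 217 CPM in the parental line (log2 fold change 0.02 ± 0.05, adjusted p = 0.784). AURKA, the centrosomal Aurora kinase, was at 275, 258 and 269 CPM in MDA231-LN and at 285, 290 and 278 CPM in the parental line, lower in every MDA231-LN library but not past the threshold (adjusted p = 0.159). AURKB, the Aurora kinase of the chromosomal passenger complex, was at 177 ± 10.8 CPM in MDA231-LN and 165 ± 17.1 CPM in the parental line (log2 fold change 0.10 ± 0.07, adjusted p = 0.201). AURKB passed without parental replicate 1 (0.17, edgeR adjusted p = 0.0436) and with upper-quartile scaling, and stood at 0.02 without parental replicate 3, within a range of adjusted p of 0.00798 to 0.819. BIRC5, which encodes survivin, another passenger protein, rose slightly, to 228, 223 and 232 CPM in MDA231-LN against 203, 218 and 199 CPM in the parental line (log2 fold change 0.14 ± 0.06, adjusted p = 0.033). That call was lost with the replicate block (edgeR adjusted p = 0.0603) and on leaving out any single library other than parental replicate 2 (edgeR adjusted p = 0.0609 to 0.118), within a range of 2.31e-04 to 0.118. Of these 4 genes, none had a log2 fold change above 0.14 in absolute size.

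TOP2A, the topoisomerase that untangles chromosomes before they part, rose to 1063, 1101 and 1060 CPM in MDA231-LN, against 805, 815 and 889 CPM in the parental line (log2 fold change 0.36 ± 0.05, adjusted p = 8.37e-07). MKI67, the proliferation antigen that coats mitotic chromosomes, did not pass. It was at 636, 651 and 633 CPM in MDA231-LN and at 625, 502 and 653 CPM in the parental line, so that parental replicate 2 alone set the mean apart (log2 fold change 0.11 ± 0.07, adjusted p = 0.165). Without that library the log2 fold change was -0.01 (edgeR adjusted p = 0.932), whereas without parental replicate 3 it was 0.18 and passed (edgeR adjusted p = 0.0169), within a range of adjusted p of 0.00867 to 0.932. CENPF, a large centromere protein, was at 344, 341 and 328 CPM in MDA231-LN and at 293, 244 and 327 CPM in the parental line, and CENPE, a kinetochore motor, was at 170, 176 and 163 CPM in MDA231-LN and at 151, 133 and 163 CPM in the parental line. Parental replicate 2 was again the lowest library for both. CENPF rose with all libraries (log2 fold change 0.23 ± 0.07, adjusted p = 0.00675) but not without parental replicate 2 (0.12, edgeR adjusted p = 0.0817, within a range of 4.80e-05 to 0.0817). CENPE likewise rose with all libraries (log2 fold change 0.18 ± 0.07, adjusted p = 0.0178) but not without parental replicate 2 (0.10, edgeR adjusted p = 0.157). CENPE was also uncalled when MDA231-LN replicate 1 was left out (edgeR adjusted p = 0.0523) and when MDA231-LN replicate 2 was (edgeR adjusted p = 0.108), within a range of 5.68e-04 to 0.157. The spindle motors KIF11 (261 ± 7.12 CPM in MDA231-LN and 247 ± 8.93 CPM in the parental line) and KIF20A (241 ± 5.77 CPM in MDA231-LN and 236 ± 8.47 CPM in the parental line) did not pass, with adjusted p = 0.212 for KIF11 and 0.658 for KIF20A.

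MKI67, CENPF and CENPE have the longest annotated transcripts of the 39 genes, 12678, 10307 and 8612 bases, and the libraries differed by transcript length. Against the other libraries of its line, parental replicate 2 was lower by a median of -0.108 (log2) over 914 genes with transcripts of 8000 bases or more and higher by 0.11 over 1323 genes under 2000 bases. Parental replicate 3 showed the opposite, 0.119 and -0.137, while the MDA231-LN libraries stayed between -0.076 and 0.042 in these classes. For MKI67 the difference of parental replicate 2 was -0.35, for CENPF -0.34 and for CENPE -0.23. In parental replicate 3 the differences of these genes were 0.22, 0.29 and 0.2. The part of transcript length in these 3 results was not tested. The other 36 genes have transcripts of at most 5758 bases. Among those under 2000 bases, ORC6 was also low in parental replicate 2 (-0.32), and TYMS was at -0.04. CDK1, CDC20, UBE2C, PCNA and AURKB were at 0.15, 0.13, 0.14, 0.07 and 0.01 in that library.

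**Figure D3:**
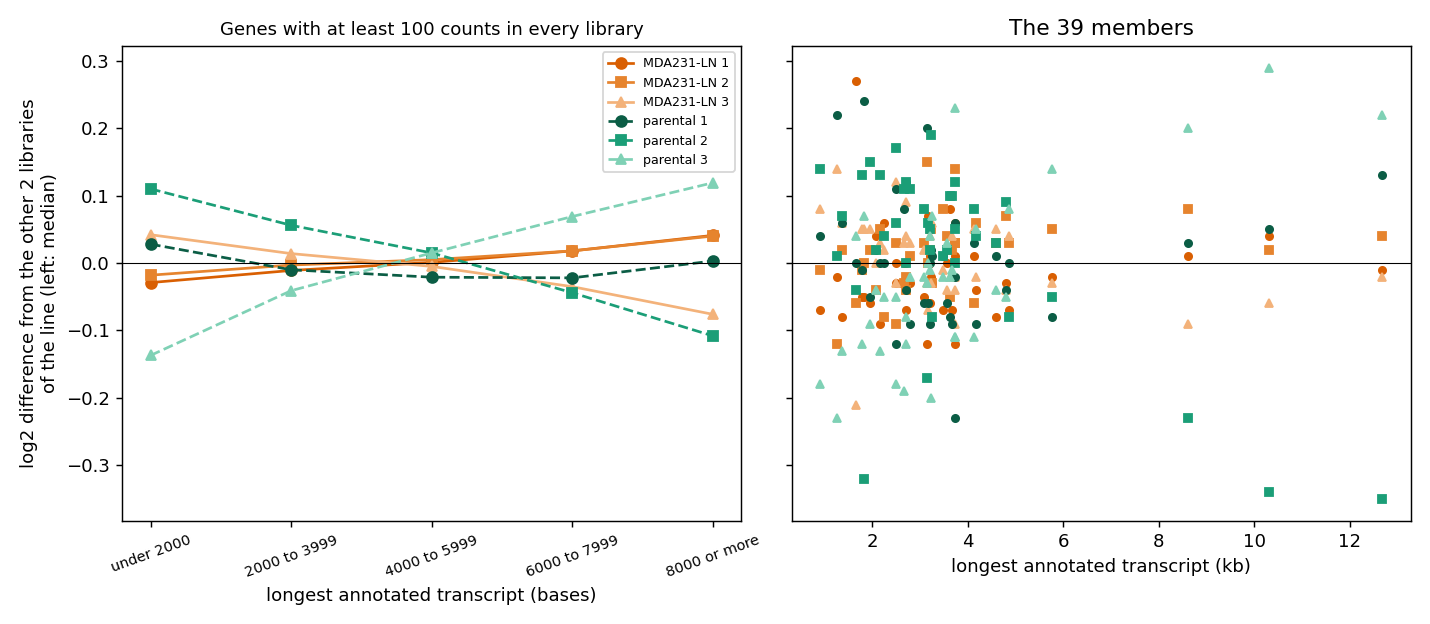
Log2 difference of each library from the other 2 of its line (y axis), as medians per class of transcript length over 9118 genes with at least 100 counts in every library (left) and for each of the 39 genes by transcript length (right). Orange marks MDA231-LN and green the parental line. Parental replicates 2 and 3 slope in opposite directions, and the 3 longest genes lie at -0.23 to -0.35 in parental replicate 2.

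The chromosomal surroundings of a gene moved with it in some cases. The 39 genes lie on 17 chromosomes, and for each the median log2 fold change of the other tested genes in its 10-Mb window of GRCh38 was taken (12 to 159 genes). For 26 of the 39 the gene and its window had the same sign. Outside the 39 this held for 36 of 52 tested replication genes and 64 of 86 tested mitotic genes. It also held for 10 of 16 RB, E2F and DREAM genes and 11 of 16 APC/C genes. The share over all tested genes was not computed, so whether the count is particular to the 39 was not tested. In 8 windows, a number counted after the values were seen, the median was at least 0.4 in absolute size. CDC20 (chromosome 1 from 43358981 to 43363203) lies in a window with a median of 0.52, ORC1 (chromosome 1 from 52372829 to 52404423) in another of 0.52, and BUB1 (chromosome 2 from 110637528 to 110678063) in one of 0.49. Beyond their windows these genes were higher by 0.09, 0.05 and 0.12. GINS1 (chromosome 20 from 25407673 to 25452628) lies in a window with a median of -0.47 and differed from it by 0.05. CCNB1 (chromosome 5 from 69167135 to 69178245) lies in one of -0.51 and was above it by 0.28. Of the 5 genes that rose by 0.5 or more on the log2 scale, 3 therefore lay in windows that were higher by about as much. Whether copy number or another source shared by neighbours enters these values was not tested.

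Other members lay further from their windows than CDC20, ORC1, BUB1 and GINS1. RRM2 (chromosome 2 from 10120698 to 10211725) rose by 0.86 in a window with a median of -0.10, a gap of 0.95. CCNB2 (chromosome 15 from 59105126 to 59125045) rose by 0.51 in a window of 0.22. That gap of 0.29 is about the same as the 0.28 of CCNB1. CDK1, TOP2A and MYBL2 rose by 0.37, 0.36 and 0.43 in windows of -0.11, -0.07 and -0.03. MCM7 (chromosome 7 from 100092728 to 100101940) was at -0.01 in a window of 90 other genes with a median of 0.72, and MCM6 (chromosome 2 from 135839626 to 135876443) at 0.20 in one of 0.65. CENPE was at 0.18 in a window of 0.41. Relative to the windows, the median was 0.05 for the replication genes and 0.13 for the mitotic genes.

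**Figure D4:**
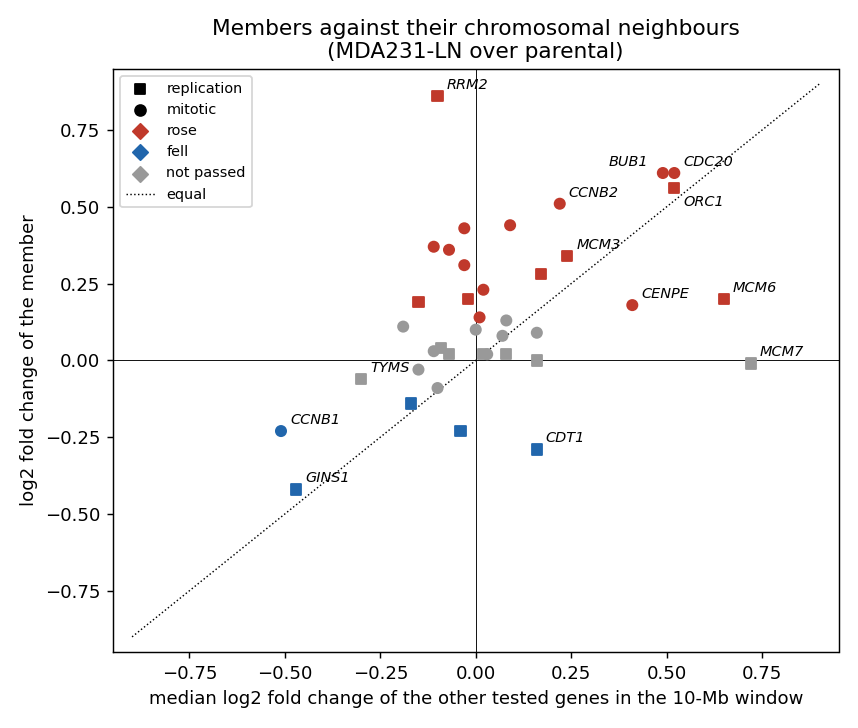
Log2 fold change of each of the 39 genes (y axis) against the median log2 fold change of the other tested genes in its 10-Mb window (x axis), MDA231-LN over the parental line in both. Squares are replication genes, circles mitotic genes, and colours give the call. CDC20, BUB1, ORC1 and GINS1 lie near the dotted line of equality, RRM2 far above it and MCM7 far below it.

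In the wider machinery outside these 39 genes, members of each list went in both directions. Of 57 other replication genes 52 could be tested, and 21 rose and 18 fell (40.4% and 34.6%), with a median log2 fold change of 0.03. Of 95 other mitotic genes 86 could be tested, and 34 rose and 25 fell (39.5% and 29.1%), with a median of 0.06. Their summed levels were 1.03 and 1.02 times as high in MDA231-LN as in the parental line. Regulators of the RB, E2F and DREAM families numbered 16 tested, of which 6 rose and 4 fell (37.5% and 25%), and of 16 tested subunits and partners of the APC/C 5 rose and 7 fell (31.2% and 43.8%). Over all tested genes 31.6% rose and 31.2% fell. In all, 75% of the other replication genes, 68.6% of the other mitotic genes, 62.5% of the RB, E2F and DREAM genes and 75% of the APC/C genes were called, against 62.8% of all tested genes. With upper-quartile scaling, which gave 5415 rising and 3603 falling of all tested genes, the counts of rising and falling genes were 25 and 12 for other replication genes, 43 and 17 for other mitotic genes and 7 and 4 for the APC/C. The 17 genes of these lists that could not be tested overlap other genes over at least 96.1% of their exonic bases and were not measured.

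ORC5, POLD3, CKAP2L, E2F5, ASF1B and KIF4A had larger fold changes, in absolute size, than any of the 39. ASF1B (log2 fold change -0.93 ± 0.07) and KIF4A (log2 fold change -0.89 ± 0.06) both fell, in windows with medians of -0.45 and -0.7. ORC5, an ATP-binding subunit of the origin recognition complex, rose 2.38-fold, to 57.2, 60.5 and 61.4 CPM in MDA231-LN against 27.4, 25.7 and 22.2 CPM in the parental line (log2 fold change 1.25 ± 0.09, adjusted p = 2.08e-12). It lies on chromosome 7 in a window with a median of 0.66. POLD3, a subunit of DNA polymerase delta, fell to 27.7 ± 3.13 CPM in MDA231-LN, against 63 ± 7.56 CPM in the parental line (log2 fold change -1.18 ± 0.09, adjusted p = 2.93e-11), in a window of chromosome 11 with a median of -1.48. CKAP2L, a spindle protein gene, rose to 88.3 ± 4.98 CPM in MDA231-LN, against 39 ± 5.15 CPM in the parental line (log2 fold change 1.18 ± 0.08, adjusted p = 2.40e-12). It lies in the same 10-Mb window as BUB1, and 57.1% of its exonic bases lie inside another gene. The windows of FZR1, ANAPC5, E2F7 and E2F5, given next, had medians of 0.41, -0.28, -0.03 and 0.25. FZR1, which activates the APC/C after mitosis as CDC20 does within it, rose 1.73-fold (129 ± 0.373 CPM in MDA231-LN and 74.7 ± 1.32 CPM in the parental line; adjusted p = 1.23e-11). ANAPC5, a scaffold subunit of the APC/C, fell to 168 ± 7.05 CPM in MDA231-LN, against 281 ± 3.09 CPM in the parental line (log2 fold change -0.74 ± 0.05, adjusted p = 6.11e-12). The E2F repressor gene E2F7 fell to 141 ± 3.98 CPM in MDA231-LN, against 209 ± 16.7 CPM in the parental line (log2 fold change -0.58 ± 0.06, adjusted p = 6.44e-09). E2F5, an E2F factor that works with pocket proteins, fell to 14.9 ± 1.69 CPM in MDA231-LN, against 29.7 ± 3.79 CPM in the parental line (log2 fold change -0.99 ± 0.12, adjusted p = 3.50e-08; 43.7% of its exonic bases inside another gene).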

How the data were processed

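Total RNA of 6 samples, 3 per cell line, was sequenced. The submitters' processing notes name STAR and GRCh38. The authors deposited raw counts of fragments per gene. Per the file headers, featureCounts 2.0.1 made them with the Ensembl 105 annotation. These counts cover whole gene spans, introns included, ignore strand, and leave out multi-mapped fragments and those overlapping several genes, which lowers overlapped genes. Symbols matched 61369 genes. Exon overlap and transcript lengths came from GENCODE 29.

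Genes kept by filterByExpr (14176) were tested with edgeR 4.0.16 (quasi-likelihood, TMM; R 4.3.3), MDA231-LN over parental, with Benjamini-Hochberg adjustment over all of them. The method was also run on simulated data in which few genes changed, in random directions. Such data do not test the scaling between lines that differ in many genes. The alternatives tried were scaling by RLE or upper quartile, dropping the filter, 1 CPM in 3 libraries, DESeq2 1.42.0, limma-voom 3.58.1, a replicate block, leaving out each library, an adjusted p under 0.01 and a 2-fold minimum. The members and lists were chosen with earlier results of these data known. Per-library values are given for members past the threshold by 0.5 or more (log2) and for the member of each role nearest to no change, with others added after their values were seen. Other lists are represented by up to 4 genes with the smallest adjusted p among those changed 2-fold, or otherwise by 2, with ASF1B and KIF4A added for the size of their change. No 2 libraries of a line agreed within sampling noise (chi-square per degree of freedom 3.86 to 9.07). Depth was 16461578 to 19171017 fragments per library; PCR duplicates without molecular identifiers are not independent molecules.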

Additional observations from a re-analysis of the deposited data

How the results depend on the processing

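Over 14 alternatives, which leave out the 2-fold minimum that no member reached, none of the 23 members past the threshold changed direction, 17 kept their call in all of them, and 6 (PCNA, BIRC5, E2F1, CENPE, CENPF and CCNB1) lost it in at least 1. Upper-quartile scaling gave 18 rising and 0 falling mitotic genes and 4 falling APC/C genes. A 2-fold minimum left 1848 rising and 1068 falling of all genes, 0 and 0 replication genes, 0 and 0 mitotic genes, 1 and 1 other replication genes, 1 and 0 other mitotic genes, 0 and 0 RB, E2F and DREAM genes and 0 and 0 APC/C genes. Leaving out each library gave 6 to 7 rising and 3 to 4 falling replication genes, and 9 to 11 rising and 1 falling mitotic genes. With the replicate block 7 replication genes rose and 3 fell, and 10 mitotic genes rose and 1 fell. Same-numbered libraries showed no visible shared deviation (correlations -0.00394, 0.00241 and -0.0526). Small effects shared by paired samples could be missed, and no label says whether the numbers pair the samples. DESeq2 gave 7 and 3, and 11 and 1.

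Of the 16 members that did not pass, 10 passed in at least 1 alternative, each of the 10 with upper-quartile scaling, AURKB also without parental replicate 1, MKI67 also without parental replicate 3 and BUB1B also with RLE factors and with the filter of 1 CPM, and 11 changed sign around 0. With upper-quartile scaling the log2 fold change was 0.11 for MCM7, 0.05 for TYMS, 0.03 for AURKA and 0.08 for TTK. For MCM7 it was 0.01 with RLE factors and with the filter of 1 CPM, and 0.00064 with DESeq2. Leaving out each library in turn gave -0.03 to 0.01 for MCM7, -0.01 to 0.04 for CDC6, -0.07 to 0.04 for GINS2, -0.01 to 0.03 for CDC45, -0.01 to 0.04 for RRM1, -0.16 to 0.0042 for TYMS, -0.01 to 0.18 for MKI67, -0.03 to 0.04 for PLK1, -0.01 to 0.05 for KIF20A and -0.11 to 0.04 for TTK. Upper-quartile scaling put the median of all tested genes at 0.13, against 0.02 with TMM. The cause of the other shifts was not tested. Calls of differences as small as 0.14 are at the limit of 3 libraries per line.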

Other observations

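Ratios of counts within a library do not depend on the scaling between libraries. RRM2 had 1.17, 1.26 and 1.32 times the counts of RRM1 in MDA231-LN, and 0.691, 0.712 and 0.697 times in the parental line. These subunits of ribonucleotide reductase thus changed places in order of counts, without overlap between the lines. CCNB2 had 0.338, 0.321 and 0.314 times the counts of CCNB1 in MDA231-LN, and 0.183, 0.197 and 0.202 times in the parental line. MCM3 had 2.22, 2.09 and 2.21 times the counts of MCM4 in MDA231-LN, and 1.53, 1.45 and 1.42 times in the parental line. ORC1 had 0.288, 0.311 and 0.301 times the counts of CDC6 in MDA231-LN, and 0.23, 0.183 and 0.207 times in the parental line. A ratio shows unequal change and not which gene changed, the pairs were picked after their values were seen, and gene lengths were not taken into account.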
